A study of Mus musculus with 6 samples.

Results

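The 9 genes described here encode the plasminogen activators (Plat and Plau), the urokinase receptor (Plaur), 3 serpins (Serpinb2, Serpine2 and Serpinf1), tissue factor (F3), its inhibitor (Tfpi) and thrombomodulin (Thbd). They were chosen by symbol from a table of 33682 genes, and all 9 were found, each on 1 row. RNA sequencing was done on cultured heart cells of newborn rats kept in medium that had been conditioned by mast cells. In 3 samples the medium came from TNF-alpha-treated mast cells (BMMCs, bone marrow-derived mast cells) that were ALOX5-/- and so lacked 5-lipoxygenase, the enzyme that begins leukotriene synthesis (Alox5KO medium). In the other 3 samples it came from WT mast cells, also treated with TNF-alpha (WT medium), and the sequenced heart cells themselves were labelled WT in both groups. The labels give no dose, no time of exposure and no leukotriene level, and no culture without mast cell medium was analysed here, so every difference below is between 2 conditioned media. The organism is labelled as mouse, whereas 32883 rows of the table carry rat gene identifiers and 0 carry mouse ones.

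Plasmin is the protease that dissolves fibrin and helps to break down extracellular matrix. It is cut from its precursor plasminogen by tissue-type (Plat) or urokinase-type (Plau) activator, and serpins restrain these activators by forming covalent complexes with them. Tissue factor starts coagulation at the cell surface, Tfpi shuts that step down, and thrombomodulin turns thrombin from a clotting into an anticoagulant enzyme. Fibroblasts of injured hearts are known to use these systems in clot removal and matrix turnover.

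The depth was between 13284088 and 15766187 reads per library, as recovered from the deposited values. Levels are given in FPKM, fragments scaled to gene length and to the library's total, so they can be compared between genes. The cells are labelled as cardiomyocytes and the study's design text names fibroblasts. In the libraries, the summed level of 12 fibroblast markers was 11634 to 13469 FPKM with Alox5KO medium and 12023 to 12989 FPKM with WT medium, while 11 cardiomyocyte markers summed to 102 to 128 FPKM with Alox5KO medium and 30.1 to 54.0 FPKM with WT medium. Fibroblast marker transcripts thus far exceeded cardiomyocyte ones. Of the 11 cardiomyocyte markers only Myl2, a defining marker of ventricular cardiomyocytes, was listed at 0 in all 6 libraries. Tnnt2, the most abundant, had 91.6, 77.3 and 71.0 FPKM with Alox5KO medium, against 30.0, 22.8 and 16.1 FPKM with WT medium. Of the 7 cardiomyocyte markers tested 4 were called higher with Alox5KO medium and 0 lower. The 8 smooth muscle and pericyte markers summed to 4919.8 to 6761 FPKM with Alox5KO medium, against 1053 to 1129.9 FPKM with WT medium, so both of these muscle marker sums moved with the groups. The fibroblast markers also moved one by one, 4 of 12 being called higher and 4 lower, against 20.7% called among all genes tested. Their median level was 358 to 423 FPKM with Alox5KO medium and 871 to 954 FPKM with WT medium. Col3a1, Pdgfrb, Tcf21 and Vim were called higher, and Pdgfra, Dcn, Lum and Fn1 lower. Dcn, named after its values were seen, had 134 ± 66.3 FPKM with Alox5KO medium and 2219 ± 711 FPKM with WT medium (SD, n = 3 each). Vim went the other way and was likewise named after its values were seen. It had 3435 ± 428 FPKM with Alox5KO medium and 1969 ± 112 FPKM with WT medium (SD, n = 3 each). The part of these markers in the results below was not tested. WT-medium replicate 3 stood apart from the rest, with a score of 25.0 on the second principal component (11.7% of the variance), against -17.0 to 9.09 for the other 5 libraries.

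Of the 9 genes, 8 had a mean of at least 1 FPKM over the 6 libraries and were tested, and Plau did not reach that level. With Alox5KO medium 2 of the 8 were higher (F3 and Plat), 5 were lower (Serpinb2, Tfpi, Serpine2, Plaur and Serpinf1) and 1, Thbd, was not called, by limma, a linear model per gene that shares information on variance between genes, with Benjamini-Hochberg (BH) adjustment over all 12341 genes tested and a threshold of 0.05. Fold changes are differences of log2(FPKM + 1). Among all genes tested 20.7% were called, 10% higher and 10.6% lower. The values of the 2 media did not overlap in 7 of the 8, against 37.6% of all genes tested, made up of 18.8% higher and 18.8% lower. F3 and Serpinb2 were called with an absolute log2 fold change of at least 1, as were 6.39% of all genes tested. The median log2 fold change, Alox5KO medium minus WT medium, was -0.48 over the 8 genes and -0.00082 over all genes tested, and the median absolute log2 fold change was 0.80 over the 8 genes and 0.20 over all genes tested. The 9 genes and the related lists below were chosen with earlier results of these data known. Their counts and medians beside those of all genes are therefore a description. Without WT-medium replicate 3 the same numbers were called, 2 higher and 5 lower. The labels do not say that replicates came from separate cultures, so the p-values rest on a spread between libraries that may be technical. In bulk RNA, fewer cells of a type and less RNA per cell cannot be told apart.

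**Figure D1:**
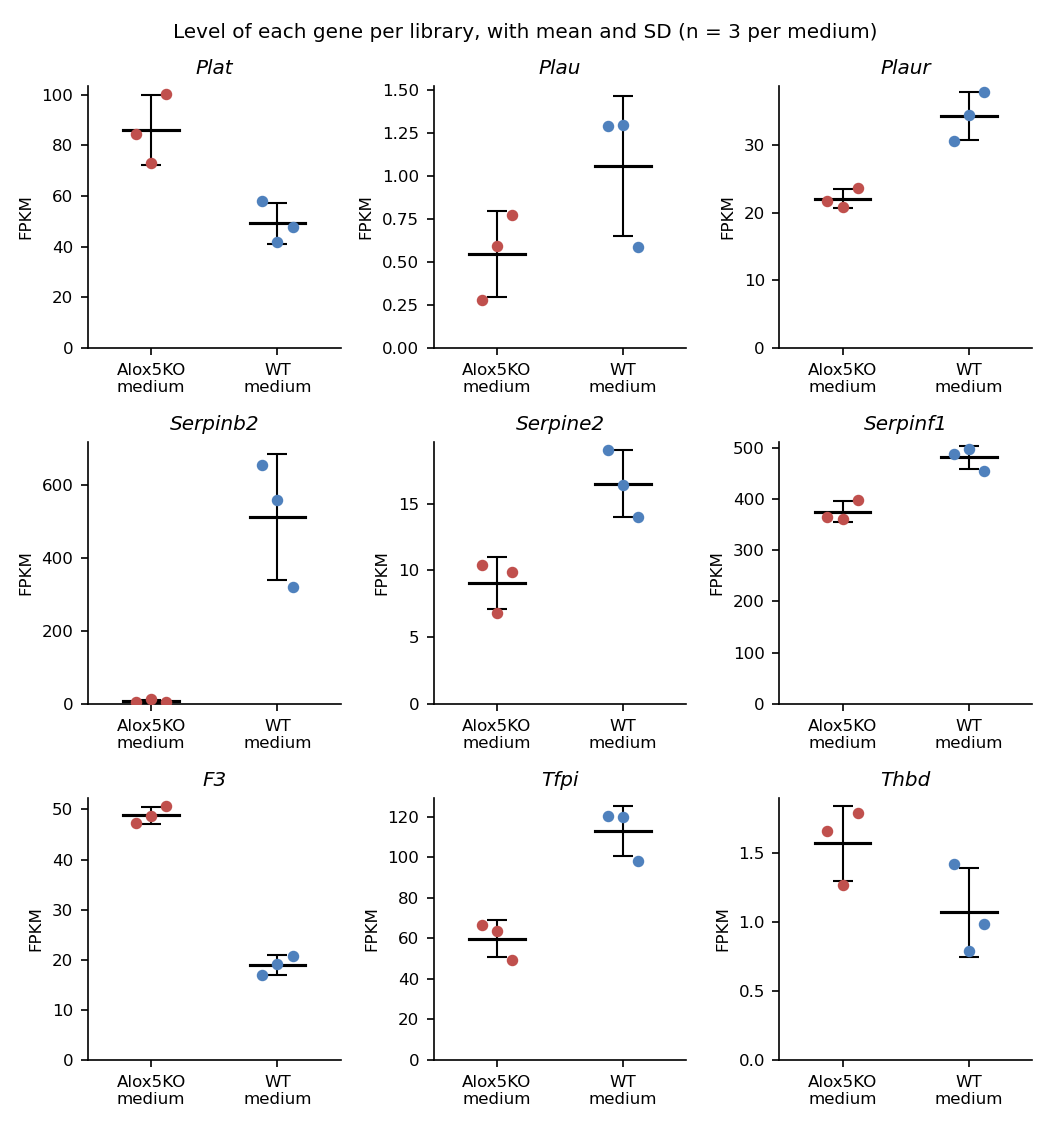
Level of each of the 9 genes in FPKM (vertical axes, linear and starting at 0, a scale per gene), with a point per library, a bar at the mean and whiskers of 1 SD (n = 3 per medium). Alox5KO medium is on the left of each panel. Points of the 2 media are separate in every panel except those of Plau and Thbd, and Serpinb2 lies near the axis with Alox5KO medium.

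Tissue-type plasminogen activator was the main activator transcript, and it was higher with Alox5KO medium. Plat (ENSRNOG00000019018, chromosome 16, 74098260 to 74122889 in the table's coordinates) had 84.6, 72.9 and 100.4 FPKM with Alox5KO medium, against 58.0, 41.8 and 47.7 FPKM with WT medium. Each Alox5KO-medium library lay above each WT-medium library, with SDs of 13.8 FPKM with Alox5KO medium and 8.19 FPKM with WT medium. Plat differed by 0.79 on the log2 scale (SE 0.15; BH-adjusted p = 0.0055 by limma), and the ratio of means was 1.75. Plau (ENSRNOG00000010516, chromosome 15, 3644769 to 3650819), the urokinase-type activator, was near the bottom of the range. It had 0.281, 0.592 and 0.775 FPKM with Alox5KO medium, from 48 reads in all, and 1.29, 1.30 and 0.590 FPKM with WT medium, from 82 reads. WT-medium replicate 3 fell among the Alox5KO-medium values, so the groups overlapped. In the fit without the filter on low values its log2 fold change was -0.40, with a 95% interval from -0.885 to 0.08 (BH-adjusted p = 0.28 by limma), so a difference was not detectable at this depth. The ratio of means was 0.519, and differences of log2(FPKM + 1) understate changes at such low levels. The level of Plat exceeded that of Plau by 301, 123 and 129.5 times in the Alox5KO-medium libraries and by 45.0, 32.2 and 80.8 times in the WT-medium libraries.

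The receptor that holds urokinase at the cell surface was lower with Alox5KO medium. Plaur (ENSRNOG00000037931, chromosome 1, 81328183 to 81344708) had 21.7, 20.9 and 23.6 FPKM with Alox5KO medium, against 30.6, 34.4 and 37.8 FPKM with WT medium. The groups did not overlap and their SDs were 1.40 FPKM with Alox5KO medium and 3.58 FPKM with WT medium. Plaur changed by -0.61 on the log2 scale (SE 0.11; BH-adjusted p = 0.0036 by limma). The receptor and the tissue-type activator therefore had changes of opposite sign, while the ligand of the receptor had few reads in every library.

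Serpinb2 had the largest change of the 9 genes. It encodes plasminogen activator inhibitor 2, a serpin that inhibits urokinase, remains largely inside the cell and is known as a gene induced by inflammatory signals in macrophages and other cells. Serpinb2 (ENSRNOG00000002460, chromosome 13, 27449934 to 27463010) had 6.78, 12.7 and 4.37 FPKM with Alox5KO medium, against 654, 558 and 321 FPKM with WT medium. Even the highest Alox5KO-medium library was far below the lowest WT-medium library, which was replicate 3. The reads behind these values numbered 735 with Alox5KO medium and 41600 with WT medium, so counting error was small on either side. The mean FPKM was 64.4-fold lower with Alox5KO medium. On the scale of log2(FPKM + 1) Serpinb2 differed by -5.89 (SE 0.44; BH-adjusted p = 6.6e-04 by limma), or -6.19 without WT-medium replicate 3. Serpinb2 also varied most among replicates of the 8 genes tested, with a coefficient of variation of 53.7% with Alox5KO medium and 33.6% with WT medium. It made up 1.12, 2.15 and 0.684% of the summed level of the 9 genes in the Alox5KO-medium libraries and 47.1, 43.2 and 32.2% in the WT-medium libraries.

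The other 2 serpins of the set were lower by smaller factors. Serpine2, also called protease nexin 1, is secreted and inhibits thrombin as well as both plasminogen activators. Serpine2 (ENSRNOG00000015461, chromosome 9, 85560863 to 85626094) had 10.4, 6.81 and 9.91 FPKM with Alox5KO medium, against 19.0, 16.4 and 14.0 FPKM with WT medium. All 3 Alox5KO-medium values lay below all 3 WT-medium values. Serpine2 differed by -0.81 on the log2 scale (SE 0.17; BH-adjusted p = 0.0089 by limma). Serpinf1, pigment epithelium-derived factor, has the serpin fold but inhibits no protease, and it is known to restrain blood vessel growth. Serpinf1 (ENSRNOG00000003172, chromosome 10, 62241756 to 62254287) had 364, 361 and 398 FPKM with Alox5KO medium, against 488, 498 and 455 FPKM with WT medium. The groups were separate, but the ratio of means was 0.779, the nearest to 1 of the 8 genes tested. Serpinf1 differed by -0.36 on the log2 scale (SE 0.10; BH-adjusted p = 0.032 by limma). The call did not hold with quantile normalization (adjusted p = 0.18 by limma), nor when any library other than WT-medium replicate 3 was left out, at adjusted p between 0.051 and 0.14 by limma. Serpinf1 was the most abundant of the 9 genes over all libraries, ranking 190 among the 12341 genes tested by mean FPKM.

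Tissue factor was higher with Alox5KO medium. F3 (ENSRNOG00000011800, chromosome 2, 225310624 to 225322272), the cell surface receptor of coagulation factor VII, had 47.3, 48.6 and 50.6 FPKM with Alox5KO medium, against 16.9, 19.1 and 20.8 FPKM with WT medium. The spread within each group was much smaller than the distance between them, with coefficients of variation of 3.35% with Alox5KO medium and 10.4% with WT medium. F3 changed by 1.33 on the log2 scale (SE 0.10; BH-adjusted p = 3.3e-05 by limma), the smallest p among the 8 genes tested, and the ratio of means was 2.58. Tfpi, the Kunitz-type inhibitor that blocks the complex of tissue factor and factor VII together with factor X, was lower. Tfpi (ENSRNOG00000005039, chromosome 3, 71852744 to 71893618) had 66.5, 63.6 and 49.5 FPKM with Alox5KO medium, against 120.3, 119.7 and 98.4 FPKM with WT medium. No Alox5KO-medium library reached the lowest WT-medium library. Tfpi differed by -0.91 on the log2 scale (SE 0.14; BH-adjusted p = 0.0016 by limma).

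The transcripts of tissue factor and of its inhibitor thus changed with opposite signs. The ratio of F3 to Tfpi, both in FPKM, was 0.711, 0.765 and 1.02 in the Alox5KO-medium libraries, against 0.140, 0.160 and 0.211 in the WT-medium libraries. Tfpi exceeded F3 in all 3 WT-medium libraries and in 2 of the 3 Alox5KO-medium libraries. Similarly, the ratio of Plat to Serpine2 was 8.10, 10.7 and 10.1 with Alox5KO medium, against 3.06, 2.56 and 3.40 with WT medium. These ratios compare transcripts, and neither protein levels nor protease activity were measured here.

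Thrombomodulin did not pass the test. Thbd (ENSRNOG00000004687, chromosome 3, 142748674 to 142752325) had 1.66, 1.27 and 1.79 FPKM with Alox5KO medium, against 1.42, 0.791 and 0.985 FPKM with WT medium. The groups overlapped, as Alox5KO-medium replicate 2 lay below WT-medium replicate 1. The log2 fold change was 0.32 with a 95% interval from -0.09 to 0.74 (BH-adjusted p = 0.27 by limma), from 266 reads with Alox5KO medium and 163 with WT medium. The ratio of means was 1.48. Thbd, Tfpi and Plat are known to be made by endothelium as well. The 9 endothelial markers in the table summed to 12.6 to 13.6 FPKM with Alox5KO medium and 13.6 to 16.1 FPKM with WT medium. Of these, Emcn was listed at 0 in all 6 libraries, Cdh5 had 9 reads with Alox5KO medium and 1 with WT medium, and Kdr had 1 read with Alox5KO medium and 4 with WT medium. Others were present. Egfl7 had 8.43 ± 0.598 FPKM with Alox5KO medium and 8.64 ± 0.297 FPKM with WT medium (SD, n = 3 each) and was not called. Tek had 3.14 ± 0.388 and 5.17 ± 1.11 FPKM in the same order and was called lower (BH-adjusted p = 0.034 by limma). Erg had 131 reads with Alox5KO medium and 30 with WT medium. The part of endothelial cells was not tested.

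**Figure D2:**
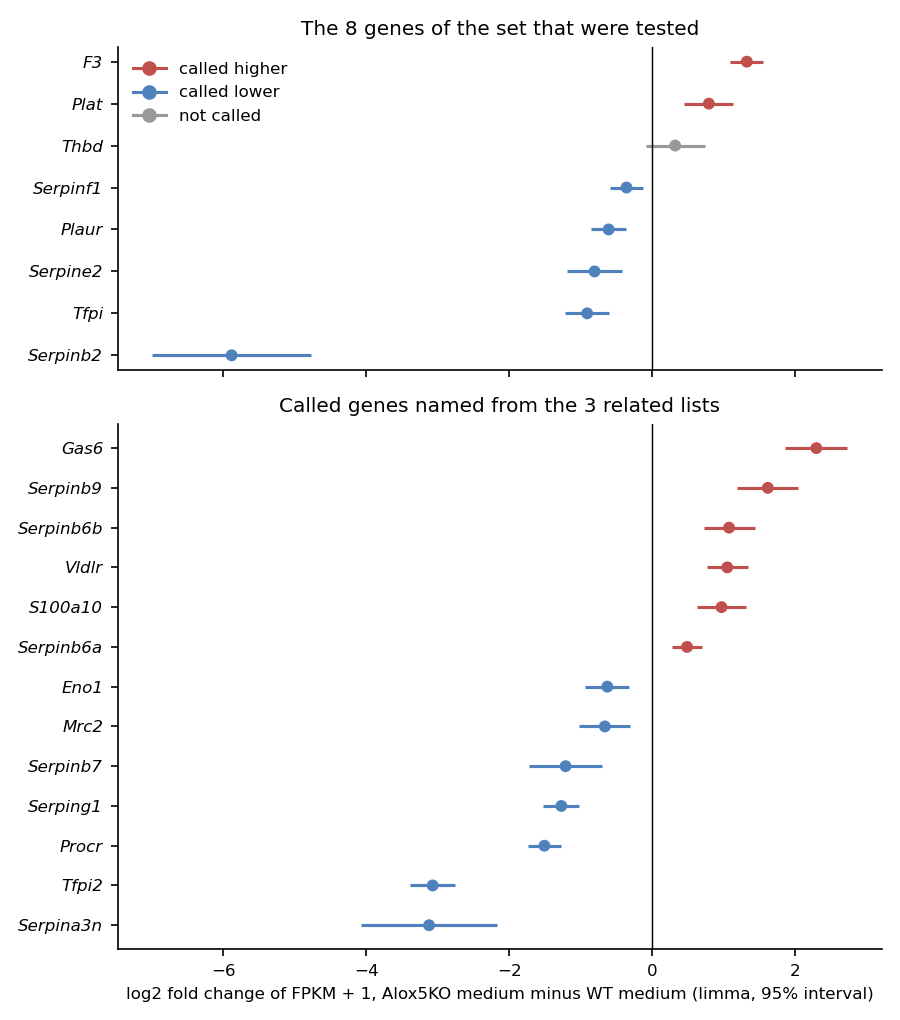
Log2 fold change of FPKM + 1, Alox5KO medium minus WT medium, from limma (points) with 95% intervals (lines), for the 8 tested genes of the set (top) and called genes named from the 3 related lists (bottom). F3 and Plat lie to the right of 0 with intervals that exclude it, Thbd crosses 0, and Serpinb2 lies farthest to the left at -5.89.

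The order of the levels differed between the media. With Alox5KO medium Serpinf1 was highest at 375 ± 20.3 FPKM (SD, n = 3), followed by Plat (86.0 ± 13.8), Tfpi (59.9 ± 9.13), F3 (48.8 ± 1.63), Plaur (22.1 ± 1.40), Serpine2 (9.06 ± 1.96), Serpinb2 (7.94 ± 4.26), Thbd (1.57 ± 0.272) and Plau (0.549 ± 0.250). The ranges of Tfpi and F3 overlapped, as did those of Serpine2 and Serpinb2, and differences in level between genes were not tested. With WT medium Serpinb2 led at 511 ± 172 FPKM (SD, n = 3), then Serpinf1 (481 ± 22.4), Tfpi (113 ± 12.5), Plat (49.2 ± 8.19), Plaur (34.3 ± 3.58), F3 (19.0 ± 1.97), Serpine2 (16.5 ± 2.48), Thbd (1.07 ± 0.322) and Plau (1.06 ± 0.406). Here Serpinb2 and Serpinf1, F3 and Serpine2, and Thbd and Plau overlapped. The 9 genes together held 0.108 to 0.118% of the summed FPKM with Alox5KO medium and 0.187 to 0.241% with WT medium.

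The composition of the summed level of the 9 genes differed as well. The sum was 604, 589 and 639 FPKM with Alox5KO medium, against 1389.7, 1289.7 and 997 FPKM with WT medium. Each Alox5KO-medium library had a lower sum than each WT-medium library, with the lowest WT-medium sum in replicate 3. Serpinf1 made up 60.4, 61.4 and 62.3% of it with Alox5KO medium, against 35.1, 38.6 and 45.7% with WT medium, although its own level was lower with Alox5KO medium. The share of Serpinb2 was at most 2.15% in any Alox5KO-medium library and at least 32.2% in every WT-medium library.

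**Figure D3:**
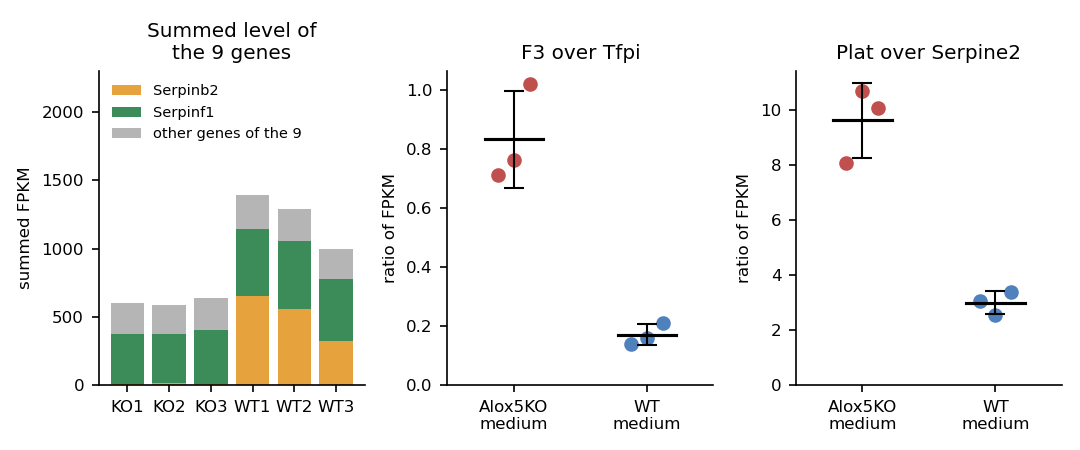
Left, stacked bars of the FPKM of Serpinb2, Serpinf1 and the other 7 genes of the set in each library (KO1 to KO3, Alox5KO medium; WT1 to WT3, WT medium). Middle and right, the ratio of F3 to Tfpi and of Plat to Serpine2, with a point per library, the mean and 1 SD (n = 3 per medium). Serpinb2 is a large part of the bar with WT medium and a thin one with Alox5KO medium, the bars reach 589 to 639 FPKM with Alox5KO medium and 997 to 1389.7 FPKM with WT medium, and neither ratio overlaps between the media.

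Among 24 other serpin genes that were looked up, 23 were in the table and 9 were tested, of which 4 were higher and 3 lower with Alox5KO medium, against 20.7% called among all genes tested. Their median log2 fold change was 0.43. Serpinb9, an intracellular inhibitor of granzyme B, had 100.5, 62.5 and 86.8 FPKM with Alox5KO medium, against 23.5, 23.9 and 31.0 FPKM with WT medium, which is 1.62 on the log2 scale (BH-adjusted p = 5.9e-04 by limma). Serpinb6b rose by 1.08, at low levels of 5.00 ± 0.854 FPKM with Alox5KO medium and 1.84 ± 0.319 FPKM with WT medium (SD, n = 3 each). Serpinb6a, named after its values were seen, rose by 0.49. Reads of these related clade B genes may be shared between copies, so their levels are uncertain. Serping1, the inhibitor of complement C1, had 20.6, 16.0 and 16.6 FPKM with Alox5KO medium, against 45.8, 42.4 and 44.0 FPKM with WT medium, and fell by 1.27 (log2; BH-adjusted p = 7.2e-05 by limma). Serpina3n, an acute phase serpin of a multigene family, fell by 3.12 (BH-adjusted p = 0.0030 by limma), with 2.16 ± 1.09 FPKM with Alox5KO medium and 27.1 ± 12.7 FPKM with WT medium (SD, n = 3 each). Its row spans 127941526 to 128080889 on chromosome 6, and Serpina3c lies within that span. Reads of related copies may be counted in it, so the fall cannot be assigned to Serpina3n alone. Serpinh1, the collagen chaperone, was the most abundant serpin at 1731 ± 173 FPKM with Alox5KO medium and 1464 ± 134 FPKM with WT medium (SD, n = 3 each). Its log2 fold change of 0.24 did not pass the test (95% interval -0.04 to 0.52), but it passed with quantile normalization, at 0.31 and an adjusted p of 0.050 by limma.

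Of 13 genes for binding plasminogen and for uptake of protease complexes, 9 were tested, 2 were higher and 2 lower, with a median log2 fold change of 0.01, against 20.7% called among all genes tested. S100a10, which with annexin A2 forms a surface binding site for tissue-type activator and plasminogen, had 585, 568 and 526 FPKM with Alox5KO medium, against 298, 343 and 226 FPKM with WT medium. Its log2 fold change was 0.97 (BH-adjusted p = 0.0020 by limma). The partner Anxa2 had 1007 ± 40.9 FPKM with Alox5KO medium and 989 ± 126 FPKM with WT medium (SD, n = 3 each), and its log2 fold change of 0.03 was not called (95% interval -0.24 to 0.31). Vldlr, an endocytic receptor that clears complexes of activator and inhibitor, rose by 1.05 to 71.4 ± 11.3 FPKM with Alox5KO medium, against 33.6 ± 1.47 FPKM with WT medium (SD, n = 3 each). The related receptor Lrp1 had a log2 fold change of -0.40 that was not called (95% interval -0.90 to 0.10), and that of Igf2r, which binds the urokinase receptor, was 0.01 and was not called. Eno1, a glycolytic enzyme that also binds plasminogen at the cell surface, fell by 0.63 (BH-adjusted p = 0.011 by limma, and 0.059 without WT-medium replicate 1). Mrc2, a collagen receptor that associates with the urokinase receptor, fell by 0.66 (BH-adjusted p = 0.017 by limma), which no longer passed with TPM scaling, nor when Alox5KO-medium replicate 3, WT-medium replicate 1 or WT-medium replicate 3 was left out (adjusted p between 0.052 and 0.067 by limma). Plasminogen itself, Plg, had 14 reads with Alox5KO medium and 0 with WT medium, so the transcript of the activators' substrate was scarce in every library.

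Among 23 coagulation factors, cofactors and thrombin receptors, 7 were tested, 1 was higher and 2 lower, against 20.7% called among all genes tested. The median log2 fold change was -0.25, and 8 were listed at 0 in all libraries. Tfpi2, a Kunitz-type inhibitor of plasmin and other proteases, had 15.9, 15.3 and 11.2 FPKM with Alox5KO medium, against 117, 138 and 119.9 FPKM with WT medium. It fell by 3.07 on the log2 scale (SE 0.14; BH-adjusted p = 1.9e-06 by limma), in the same direction as Tfpi. Procr, the receptor of protein C, had 4.53, 4.49 and 4.67 FPKM with Alox5KO medium, against 16.0, 14.2 and 14.3 FPKM with WT medium, and fell by 1.51 (BH-adjusted p = 1.7e-05 by limma). Gas6, a vitamin K-dependent ligand of the TAM receptor kinases, had 176, 133 and 194 FPKM with Alox5KO medium, against 30.0, 28.1 and 42.2 FPKM with WT medium, and rose by 2.30 (BH-adjusted p = 1.0e-04 by limma). Pros1, the cofactor of protein C, had a log2 fold change of -0.25 that was not called. F2r, the main thrombin receptor, had 121, 76.6 and 113 FPKM with Alox5KO medium and 51.3, 59.5 and 121 FPKM with WT medium. It was not called (log2 fold change 0.49, BH-adjusted p = 0.43 by limma), but without WT-medium replicate 3 the log2 fold change was 0.87 with an adjusted p of 0.025 by limma.

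**Figure D4:**
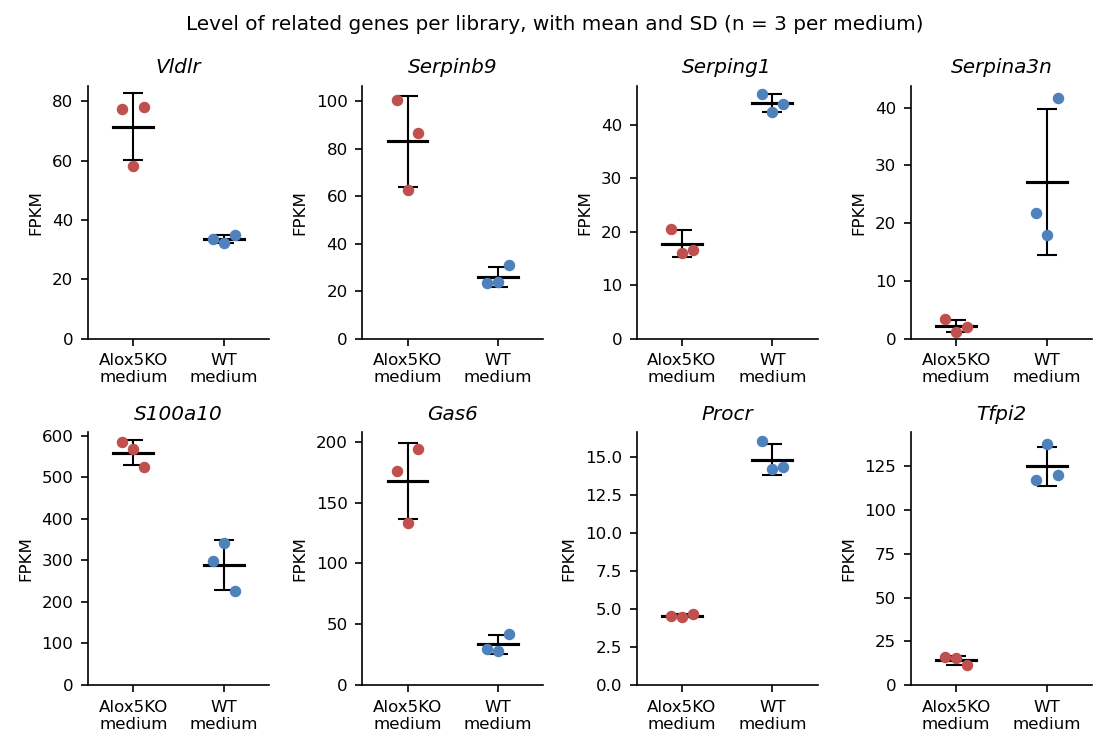
Level in FPKM (vertical axes, linear, a scale per gene) of 8 called genes of the related lists, with a point per library, the mean and 1 SD (n = 3 per medium), Alox5KO medium on the left. Vldlr, Serpinb9, S100a10 and Gas6 are higher with Alox5KO medium and Serping1, Serpina3n, Procr and Tfpi2 lower, with no overlap between the media in any panel.

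Genes with the most similar pattern over the 6 libraries were found for each of the 8 tested genes, as those with the smallest root mean square difference of centred log2(FPKM + 1). The nearest to Serpinb2 were Csf3, Pla2g2a and Ptges, at distances of 0.379, 0.449 and 0.466 log2 units. Their levels were 0.464, 29.0 and 2.89 FPKM with Alox5KO medium, against 112, 1045 and 169 FPKM with WT medium. F3 was nearest to Vgll3 (0.0610) and Rerg (0.0717), and Plat to Wnt5a (0.0574), Tnnc1 (0.0786) and Fchsd1 (0.0900). The nearest to Tfpi were RGD1311744, Gng12 and Hopx, to Plaur Cln8, Creb3l1 and Bbs1, to Serpine2 AABR07021465.2, Ctsh and Ccng2, to Serpinf1 AC118841.1, Rpn1 and Smpd1, and to Thbd Mad2l1bp, Efna2 and Gga2. The 6 libraries fall in 2 groups, so this distance includes the difference between the media.

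No row of the table overlapped any of the 9 genes on the chromosome. Of the 18 nearest tested neighbours, 1 on either side of each gene, 5 were called, 2 higher and 3 lower, against 20.7% of all genes tested. In 2 of these the neighbour was called in the same direction as the gene itself. Calcrl, 7512 bases from Tfpi, fell by 1.59 on the log2 scale, and Serpinb7, 95882 bases from Serpinb2, fell by 1.21. The level of Serpinb7 was low and its ratio of means was 0.196, a change that log2(FPKM + 1) understates. The neighbour of Tfpi on the other side, Ctnnd1, rose by 0.82.

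**Figure D5:**
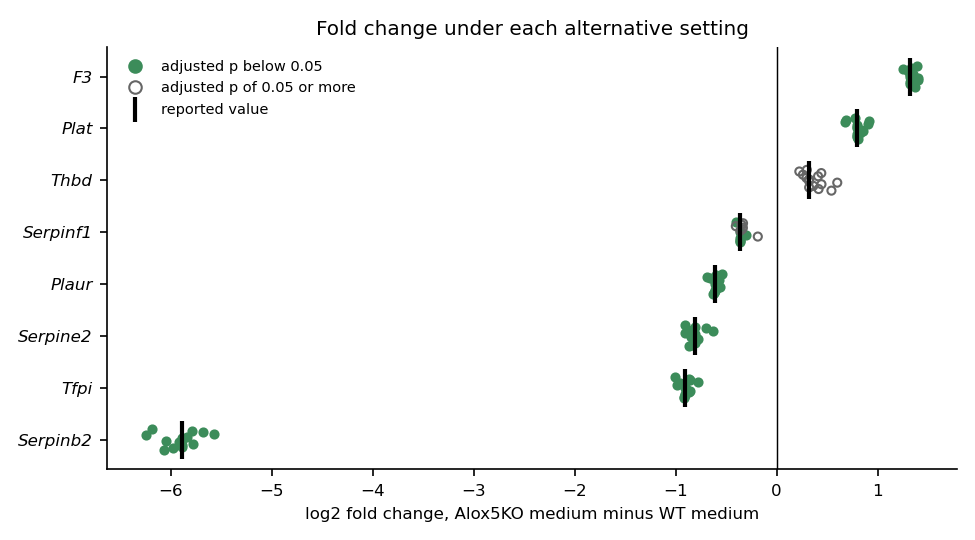
Log2 fold change of each tested gene, Alox5KO medium minus WT medium, under every alternative setting (points, filled where the adjusted p was below 0.05) beside the reported value (vertical bar). All points of a gene lie on the same side of 0, and only Serpinf1 has both filled and open points.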

How the data were processed

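The authors deposited FPKM values, 1 column per sample, with the gene length, per the file headers. HISAT2 2.0.5 and featureCounts 1.5.0-p3 are among the tools listed, with mm10 as the build, per the submitters' processing notes, which assign no roles. The rat build behind the coordinates, and whether counting used strand, are not given in the sources used here. RNA came from TRIzol extraction and NEBNext Ultra libraries, per the labels' protocols.

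FPKM times gene length was a whole multiple of a step per column within 0.05 reads for 100% of values above 0, which gave reads per library. Closest replicates differed beyond sampling noise (chi-square 7.05 per degree of freedom).

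Tests ran on log2(FPKM + 1) for the 12341 genes whose mean over the 6 libraries reached 1 FPKM, using limma 3.58.1 in R 4.3.3 (trend, robust prior, two-sided, Benjamini-Hochberg at 0.05), and fold changes on this scale understate low genes. The fit was also run on simulated data in which every gene had the same dispersion, so that run cannot give the error rate here. Alternatives changed pseudocount, filter, scaling, prior and test, added the replicate block, or left out a library. Named were the 9 genes and, of the 3 related lists, up to 5 called genes with the smallest p, the most abundant member and uncalled members of at least 20 FPKM. The 9 genes and the lists were chosen with earlier results of these data known. No sequences are printed, since the sequence tables at hand are of mouse. Some results of the related lists and of similar genes are not reported here. Read limits cover counting error only.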

Additional observations from a re-analysis of the deposited data

How the results depend on the processing

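Over 15 alternatives (14 for Thbd, which a minimum mean of 5 FPKM left out), all 8 tested genes kept the sign of their fold change, and Plat, Plaur, Serpine2, Serpinb2, F3 and Tfpi kept their calls. Their log2 fold changes ran from 0.68 to 0.92 for Plat, -0.68 to -0.54 for Plaur, -0.91 to -0.63 for Serpine2, -6.25 to -5.57 for Serpinb2 and 1.25 to 1.40 for F3, and Tfpi was never nearer to 0 than -0.78. Serpinf1 ran from -0.40 to -0.19 and kept its call in 8 of 15, and Thbd ran from 0.23 to 0.60 with no call. Same-numbered samples did not deviate together in every pair (correlations of -0.096, 0.105 and 0.167), and with the replicate block 2 of the 8 genes were called higher and 4 lower, Serpinf1 having an adjusted p of 0.061 by limma. Over all genes the replicate block gave 1277 higher and 1375 lower calls, and limma voom on the recovered reads 1391 and 1235. With 1 library left out the calls over all genes ran from 791 to 1226 higher and from 862 to 1325 lower, the lowest without WT-medium replicate 1, and the lower calls among plasminogen binding and uptake genes from 0 to 2. That list had 1 lower call with TPM scaling, and the coagulation list 1 to 2 higher calls with 1 library left out. With 1 library left out Anxa2 ran from -0.073 (without WT-medium replicate 3) to 0.11, and Igf2r from -0.15 (without Alox5KO-medium replicate 2) to 0.12, with -0.03 without WT-medium replicate 1, and neither gene was called there. The cause of these changes was not tested. Depth limits Plau and Plg, with 130 and 14 reads in all 6 libraries.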

Other observations

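Clade B serpin genes lie in 2 groups on rat chromosomes 13 and 17, a division looked at after their values were seen. On chromosome 13, between 26903052 and 27914006, 10 such genes are annotated, Serpinb2 among them. Of these, Serpinb2 and Serpinb7 were tested, and both were called lower, against 10.6% called lower among all genes tested. Serpinb7 had 0.519, 0.756 and 0.116 FPKM with Alox5KO medium, against 2.61, 2.79 and 1.69 FPKM with WT medium. Serpinb10, 1 gene further along from Serpinb2, had 8 reads with Alox5KO medium and 35 with WT medium, Serpinb8 had 15 with Alox5KO medium and 34 with WT medium, and Serpinb13 had 2 with Alox5KO medium and 27 with WT medium. Serpinb3a had 14 reads with Alox5KO medium and 2 with WT medium, with overlapping values. On chromosome 17, between 32190801 and 32911495, 6 clade B genes are annotated and 4 were tested. Of these, Serpinb9, Serpinb6b and Serpinb6a were called higher with Alox5KO medium, against 10% called higher among all genes tested. Serpinb1a was not called at 4.16, 3.75 and 2.96 FPKM with Alox5KO medium, against 3.24, 2.73 and 1.49 FPKM with WT medium. Apart from Serpinb2 and Serpinb7, the genes on chromosome 13 were below the level tested, so their differences are a description.

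The serpin domain is annotated in 48 rows of the authors' deposited file, 3 of them in the set of 9. Of these rows 18 were listed at 0 in all libraries and 11 were tested, with 4 higher, 5 lower and 2 not called, against 20.7% called among all genes tested. The 11 tested rows are the 3 serpins of the set and genes of the list of other serpins above, so they are not a separate result.

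The 10 mast cell markers summed to 25.0 to 34.5 FPKM with Alox5KO medium and 47.4 to 64.9 FPKM with WT medium, 4 of them (Fcer1a, Ms4a2, Mcpt4 and Tpsb2) being listed at 0 in all 6 libraries. The most abundant, Cpa3, had 19.6 ± 4.19 FPKM with Alox5KO medium and 45.4 ± 7.69 FPKM with WT medium (SD, n = 3 each). Of the 3 mast cell markers tested, Cpa3 and Gata2 were called lower and Cma1 was not called, against 20.7% called among all genes tested. Kit, below the level tested, went the other way. It had 1.01 ± 0.280 FPKM with Alox5KO medium and 0.618 ± 0.133 FPKM with WT medium (SD, n = 3 each), from 248 and 136 reads. The 9 macrophage and leukocyte markers summed to 25.5 to 40.3 FPKM with Alox5KO medium and 33.5 to 38.2 FPKM with WT medium. The 7 mesothelial and epicardial markers summed to 18.9 to 26.2 FPKM with Alox5KO medium and 24.3 to 31.4 FPKM with WT medium. The part of these markers in the results was not tested.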
